A study of Mus musculus with 20 samples.

Results

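The comparison described here is between hippocampus of NCoR1-KO mice and hippocampus of control mice at postnatal day 21. Its members are the 3 NCoR1-KO and 4 control hippocampus libraries, 7 of the 20 RNA sequencing libraries of the study, and they were chosen by tissue and genotype alone. The NCoR1-KO mice carried floxed Ncor1 together with Snap25-IRES2-cre, a knock-in that expresses Cre recombinase from the Snap25 locus in neurons at large. Cells that are not neurons therefore keep Ncor1. The labels call the other group control and do not say whether those mice carried Cre or floxed alleles. The other hippocampus group, 3 libraries of SMRT-KO mice (the same driver with a floxed SMRT gene), entered the fit so that the 3 genotypes shared 1 estimate of the spread. Amygdala libraries, again 4 control and 3 NCoR1-KO, served for a comparison between tissues. Nothing in the labels shows that libraries of 1 group are from separate animals. The p-values therefore measure the spread among these samples and no more, and that spread may be technical.

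NCoR1 is a corepressor, a protein that DNA-bound transcription factors recruit to keep target genes low. It binds nuclear receptors without their hormone, among them the thyroid hormone and retinoic acid receptors and the clock repressors of the Rev-erb family, and it holds and activates the histone deacetylase HDAC3 in a complex with TBL1X, TBL1XR1 and GPS2. In brain, thyroid hormone and retinoic acid act on the maturation of neurons, and Rev-erb with NCoR1 and HDAC3 closes a loop of the circadian clock by repressing Arntl and Nfil3.

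Levels are in TPM, a share of the transcripts of a library that is scaled for transcript length. The unit holds no read number, and the depth of the libraries is unknown. Of 23412 gene symbols, 14501 reached 1 TPM in at least 3 of the 10 hippocampus libraries and were tested. Between 14049 and 14348 genes reached 1 TPM in each of the 7 libraries, and their log2 values correlated with r from 0.978 to 0.993 across genes, which are not independent replicates. Rn45s, the precursor of ribosomal RNA, held 1.87% to 3.28% of a control library and 1.04% to 1.66% of an NCoR1-KO library. Markers of the choroid plexus, the epithelium that lines the ventricles, were highest in NCoR1-KO 3, and markers of the striatum were highest in control 2. Both libraries stood apart in this way, and values without them are given beside the lists and genes they weighed on most.

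Ncor1 (ENSMUSG00000018501.17, minus strand of chromosome 11 from 62316426 to 62458541, GRCm38) was at 81.6, 119, 129 and 137 TPM in controls 1 to 4. In NCoR1-KO 1 to 3 it was at 41.9, 44.5 and 61.1 TPM. Every NCoR1-KO library lay below every control, and NCoR1-KO 3 came nearest to control 1. The mean was 42.1% of control, 49.2 ± 10.4 TPM (SD, n = 3) against 117 ± 24.7 TPM (SD, n = 4). A two-sided exact permutation test gave p = 0.0286, the smallest that 35 arrangements of the 7 libraries allow. In the fit across all genes the log2 difference was -1.22 ± 0.20 (SE), with limma's adjusted p = 0.79. In a whole tissue, fewer cells of a type and less RNA per cell cannot be told apart, and the share of Ncor1 RNA from cells outside the reach of the driver was not measured.

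Snap25, which codes for a protein of synaptic vesicle fusion and whose locus holds the Cre insertion (plus strand of chromosome 2 from 136713453 to 136782428), was at 2236, 2204, 2329 and 2249 TPM in the controls. The NCoR1-KO libraries were at 1273, 1346 and 1257 TPM. The groups did not overlap and each was narrow, with means of 2255 ± 53.1 TPM (SD, n = 4) and 1292 ± 47.4 TPM (SD, n = 3). The log2 difference was -0.80 ± 0.12, with limma's adjusted p = 0.79 and an exact permutation p = 0.0286. With only the 7 libraries in the fit, which leaves out the wider SMRT-KO group, the adjusted p of Snap25 was 0.00133, and with quantile normalization it was 0.029. SMRT-KO libraries, which carry the same driver, were at 1247, 1090 and 1699 TPM. The direct log2 difference of NCoR1-KO from SMRT-KO was -0.03 for Snap25 and -1.24 for Ncor1.

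**Figure D1:**
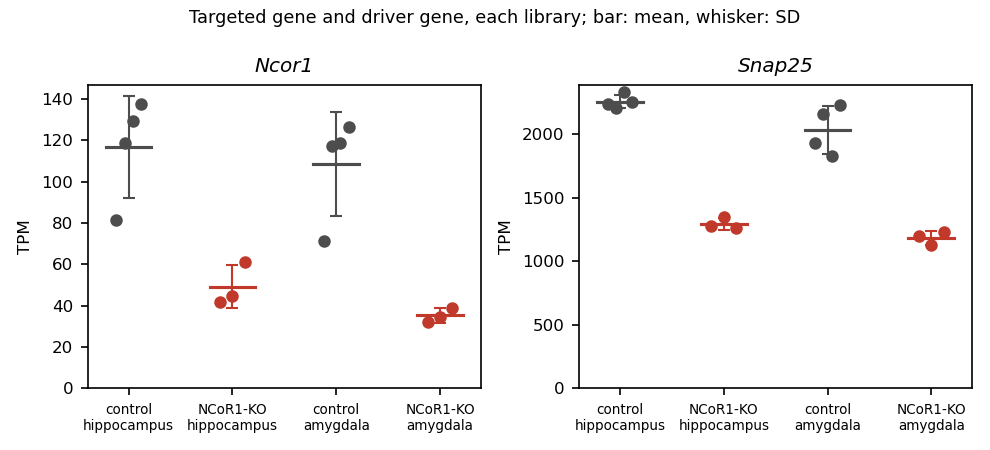
Levels of Ncor1 and Snap25 in TPM in each control (grey) and NCoR1-KO (red) library of hippocampus and amygdala, where each point is 1 library, the bar is the mean and the whisker the SD. In both tissues every NCoR1-KO library lies below every control for both genes, and in hippocampus Snap25 is at 1257 to 1346 TPM against 2204 to 2329 TPM.

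The partners of NCoR1 in its complex were at control level within the spread of the libraries. Hdac3, the deacetylase, was at 117, 110, 124 and 111 TPM in controls and at 114, 119 and 107 TPM in NCoR1-KO. The groups overlapped, with a log2 difference of -0.03 ± 0.06. The differences of Tbl1x and Tbl1xr1, which code for the WD-repeat subunits, were -0.01 ± 0.08 and 0.06 ± 0.09, and that of Gps2 was -0.02 ± 0.10. All 4 were small enough to change sign when single libraries were left out.

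The floxed and driver loci had no other gene with a difference of that size nearby. Of 26 tested genes within 1 Mb of Ncor1, 15 had a mean above control, and their log2 differences ran from -0.25 to 0.34. The lowest was Pigl, which overlaps the start of Ncor1 on the other strand and was at 9.73, 10.5, 13.2 and 12.5 TPM in controls and 8.40, 11.5 and 8.58 TPM in NCoR1-KO. Within 1 Mb of Snap25, 6 tested genes lay between -0.35 and 0.11. In these 2 windows, libraries of the groups did not overlap for 0 genes (8.09% of all genes). An unadjusted p under 0.05 was reached by 0 (4.54% of all genes).

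Across the hippocampus, limma called 0 of the 14501 genes at an adjusted p under 0.05 (0%), with a smallest adjusted p of 0.79. An unadjusted p under 0.05 was reached by 658 genes (4.54%), 273 with a higher mean in NCoR1-KO (1.88%) and 385 with a lower one (2.65%). The 3 NCoR1-KO libraries lay above all 4 controls for 606 genes (4.18%) and below them for 567 (3.91%), 1173 in all (8.09%). As many genes had a mean above control as below it, 7255 against 7246 (50.03% above). A typical gene was measured with a standard error of 0.11 on the log2 scale, and 394 genes differed by more than 0.5. The split of genes at an unadjusted p under 0.05 moved with scaling, to 189 higher and 507 lower after Rn45s was left out and to 361 higher and 329 lower after quantile normalization. Because 0 genes passed, all further differences of NCoR1-KO from control in hippocampus did not pass the test. In this fit their adjusted p was 0.79 or more.

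The 12 genes of smallest unadjusted p with a higher level in NCoR1-KO and libraries that did not overlap were led by Bcl6 (minus strand of chromosome 16 from 23965052 to 23988852). Bcl6 codes for a zinc finger repressor that itself recruits corepressors and that is known for its part in the differentiation of B cells and of cortical neurons. It was at 45.6, 44.5, 44.7 and 44.3 TPM in controls and at 62.0, 59.7 and 56.1 TPM in NCoR1-KO. The controls were almost equal, and the mean was 132% of theirs, a log2 difference of 0.40 ± 0.07 (limma's adjusted p = 0.885). It was between 0.36 and 0.43 with any 1 of the 7 libraries left out.

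Tnfrsf25, a death receptor of the TNF receptor family, had the largest difference of the 12, 0.72 ± 0.17. Its controls were spread, at 8.37, 14.6, 12.3 and 8.77 TPM, while NCoR1-KO libraries were at 19.1, 18.3 and 17.5 TPM. Cxcr7, an atypical receptor of the chemokine CXCL12, was at 13.6 to 18.6 TPM against 20.9 to 23.9 TPM (0.43 ± 0.10). Smarcd2, a subunit of the SWI/SNF chromatin remodelling complex, was at 20.5 to 21.7 TPM against 25.9 to 28.0 TPM (0.34 ± 0.08). The gap between the groups was wider than the range of the controls for Smarcd2 and narrower for Tnfrsf25 and Cxcr7.

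Of the others among the 12, Parp1, which adds poly(ADP-ribose) at DNA breaks, was at 108 to 117 TPM in controls and at 128 to 141 TPM in NCoR1-KO (0.26 ± 0.06). Nutf2, which carries Ran into the nucleus, differed by 0.24 ± 0.06. B4galt4, a galactosyltransferase, differed by 0.37 ± 0.09. Rnf19a, a ubiquitin ligase, and Dhx33, an RNA helicase, differed by 0.27 ± 0.07 and 0.28 ± 0.07.

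Among the 12 genes of smallest unadjusted p on the lower side, after Snap25 and Ncor1, S100a10 stood first. It codes for p11, the partner of annexin A2 that carries serotonin receptors and ion channels to the cell surface. S100a10 (plus strand of chromosome 3 from 93555080 to 93564643) was at 41.8, 46.0, 45.0 and 41.9 TPM in controls and at 30.1, 32.6 and 26.1 TPM in NCoR1-KO. The mean was 67.7% of control, with a log2 difference of -0.55 ± 0.10 (limma's adjusted p = 0.885). Tcp11l1 (minus strand of chromosome 2 from 104657288 to 104712169) had a difference as large as that of Ncor1, -1.22 ± 0.25. It was at 19.9, 17.2, 27.2 and 31.5 TPM in controls and at 6.05, 12.3 and 11.2 TPM in NCoR1-KO, so that controls 1 and 2 lay nearest to the knockout. In amygdala it was at -1.02 ± 0.23, where the groups did not overlap either (limma's adjusted p = 0.1).

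In Gng4, Atp2b4 and Doc2a control 2 was the highest library. Gng4, a G protein gamma subunit, was at 33.8, 66.9, 41.7 and 52.5 TPM in controls and at 23.5, 27.5 and 24.4 TPM in NCoR1-KO (-0.89 ± 0.19). Atp2b4, a calcium pump of the plasma membrane, was at 31.6, 93.9, 33.5 and 53.0 TPM against 16.9, 25.8 and 16.3 TPM (-1.28 ± 0.33). Doc2a, a calcium sensor of transmitter release, was at 11.7, 19.5, 11.4 and 9.61 TPM against 7.47, 7.24 and 6.49 TPM (-0.75 ± 0.20). Without control 2 the difference of Gng4 was -0.72, that of Atp2b4 -0.96 and that of Doc2a -0.56. Akr1b3, the aldose reductase that turns glucose into sorbitol, had narrow groups, with 30.3 to 35.8 TPM in controls and 21.2 to 23.4 TPM in NCoR1-KO (-0.58 ± 0.13). Lzts1, a leucine zipper protein of postsynaptic densities, was at 30.7 to 50.2 TPM against 22.9 to 24.9 TPM (-0.60 ± 0.14). Smaller differences were those of Garnl3 (-0.53 ± 0.13), Ankrd34b (-0.43 ± 0.10) and Fgf12, an intracellular partner of sodium channels (-0.29 ± 0.08).

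**Figure D2:**
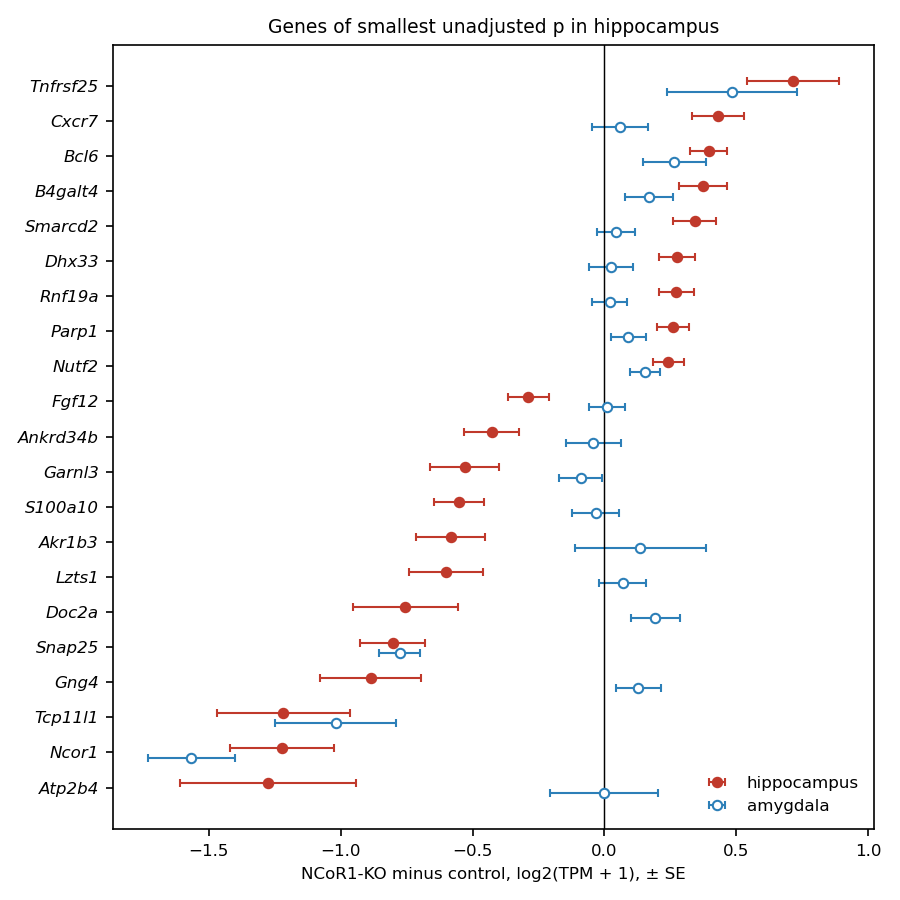
Log2 differences (NCoR1-KO minus control, on log2(TPM + 1), with SE) of 9 of the 12 higher genes and the 12 lower genes of smallest unadjusted p in hippocampus (red), beside the same genes in amygdala (blue, open). Snap25 is at -0.80 in hippocampus and -0.78 in amygdala and Tcp11l1 at -1.22 and -1.02, while Gng4 and Atp2b4 lie at -0.89 and -1.28 in hippocampus and at 0.13 and -0.00 in amygdala.

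Clock genes hold the best known targets of the Rev-erb and NCoR1 branch. All 19 listed genes were tested, and 13 had a mean above control (50.03% of all genes), with a median log2 difference of 0.18 against 0.00 for all genes. The median stayed between 0.11 and 0.18 with any 1 library left out. An unadjusted p under 0.05 was reached by 6 on the higher side (1.88% of all genes) and by 1 on the lower side (2.65%), and the libraries of 4 lay wholly above control (4.18%).

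Nfil3, a basic leucine zipper repressor that Rev-erb represses (minus strand of chromosome 13 from 52967209 to 52981073), was at 9.31, 12.7, 8.88 and 9.66 TPM in controls and at 13.8, 17.4 and 14.6 TPM in NCoR1-KO. The difference was 0.55 ± 0.15, with control 2 nearest to the knockout. Arntl, the core activator also known as BMAL1 (plus strand of chromosome 7 from 113207465 to 113314126), was at 29.8, 26.99, 27.1 and 25.3 TPM in controls and at 33.6, 31.4 and 34.5 TPM in NCoR1-KO. Its groups did not overlap, with a difference of 0.27 ± 0.08. Nr1d1, which codes for Rev-erb alpha, was at 85.3, 83.6, 73.4 and 63.3 TPM against 109, 103 and 79.9 TPM, where NCoR1-KO 3 lay among the controls (0.34 ± 0.15).

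The outputs of the clock were measured too. Tef, a transcription factor of the PAR family, was at 195 to 223 TPM in controls and at 227, 245 and 223 TPM in NCoR1-KO (0.15 ± 0.06), and NCoR1-KO 3 was above control 2 by less than 1 TPM. Dbp, of the same family, was at 60.6 to 72.5 TPM against 75.0 to 85.7 TPM (0.23 ± 0.16). Per2, a repressor of the core loop, was at 17.6 to 25.0 TPM against 24.7 to 29.9 TPM, with a small overlap (0.35 ± 0.12), and Per1 and Per3 differed by 0.19 ± 0.12 and 0.18 ± 0.11. Bhlhe40, an E-box repressor, differed by 0.33 ± 0.14, and Ciart, a clock repressor listed in the table as Gm129, by 0.27 ± 0.14. On the lower side were the activators Npas2 (-0.39 ± 0.15) and Clock (-0.19 ± 0.20). Rora, the receptor that competes with Rev-erb for its sites, was at 12.5, 10.3, 4.64 and 10.1 TPM in controls and at 4.07, 5.67 and 5.64 TPM in NCoR1-KO, with control 3 among the knockout libraries (-0.70 ± 0.36). In amygdala Rora fell by 0.87 on the log2 scale (limma's adjusted p = 0.0162).

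**Figure D3:**
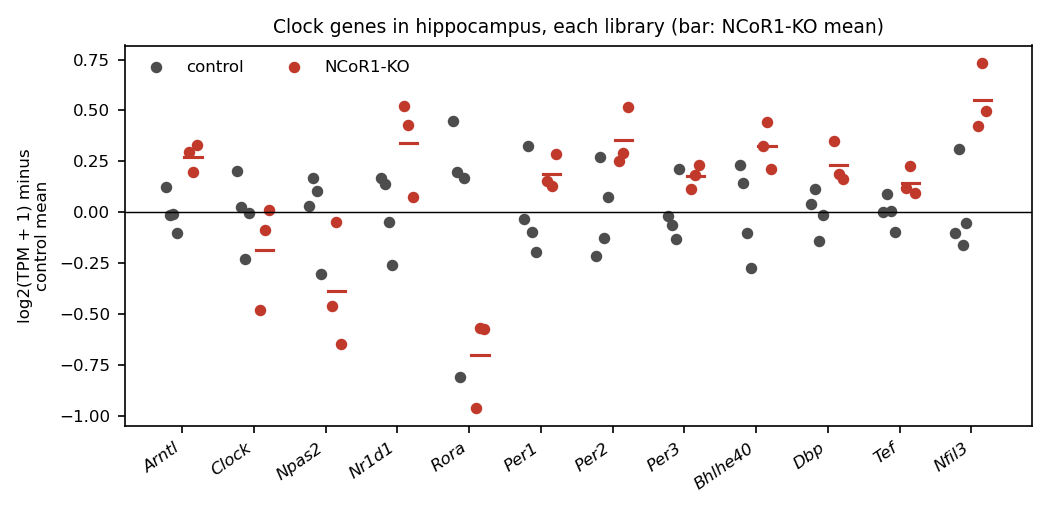
Level of 12 clock genes in each control (grey) and NCoR1-KO (red) hippocampus library, as log2(TPM + 1) minus the mean of the 4 controls, with a bar at the NCoR1-KO mean. Arntl, Tef, Nfil3 and Dbp have all 3 NCoR1-KO libraries above all 4 controls, and Rora has 1 control at the level of the knockout libraries.

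Promoter sequence is shown for 3 of the clock genes whose groups did not overlap, because Rev-erb and ROR bind the nuclear receptor half-site and CLOCK with BMAL1 binds the E-box. These genes were picked after their values were seen. The windows run from 250 bases before to 50 bases after a RefSeq transcript start (GRCm38.p6), 5′ to 3′ on the strand of the gene, and capitals mark a half-site (AGGTCA, or TGACCT where it lies on the other strand) or an E-box (CACGTG, the same on both strands).
Arntl, chr7:113207261-113207560, plus strand: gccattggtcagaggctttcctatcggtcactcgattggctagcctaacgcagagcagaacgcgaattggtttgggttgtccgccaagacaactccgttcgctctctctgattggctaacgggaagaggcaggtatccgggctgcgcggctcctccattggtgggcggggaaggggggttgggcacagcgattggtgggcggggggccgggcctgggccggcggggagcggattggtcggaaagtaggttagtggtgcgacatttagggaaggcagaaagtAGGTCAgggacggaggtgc
Nfil3, chr13:52980990-52981289, minus strand: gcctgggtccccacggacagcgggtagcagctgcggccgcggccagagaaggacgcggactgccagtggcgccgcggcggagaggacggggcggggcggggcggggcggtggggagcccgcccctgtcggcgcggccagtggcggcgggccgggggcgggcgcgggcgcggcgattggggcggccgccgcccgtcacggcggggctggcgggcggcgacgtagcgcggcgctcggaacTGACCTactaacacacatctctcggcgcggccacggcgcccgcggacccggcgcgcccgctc
Tef, chr15:81802423-81802722, plus strand: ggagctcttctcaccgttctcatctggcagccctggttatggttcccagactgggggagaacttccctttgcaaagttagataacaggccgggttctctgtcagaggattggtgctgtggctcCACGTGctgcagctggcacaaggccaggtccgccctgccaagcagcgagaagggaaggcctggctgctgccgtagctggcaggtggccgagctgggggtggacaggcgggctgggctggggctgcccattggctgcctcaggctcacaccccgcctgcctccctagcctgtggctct
The Arntl and Nfil3 windows each hold 1 half-site and the Tef window 1 E-box. A second Arntl window, whose start lies further upstream, holds neither. Dbp, whose groups did not overlap either, is not shown, and its window holds neither a half-site nor an E-box. Of the 19 clock genes 17 had a window, 23 windows in all, and a half-site stood in 5 windows of 5 genes and an E-box in 6 windows of 5 genes. Over all 32817 windows of this length 16.3% held a half-site and 7.15% an E-box. A match is a description of these letters and not of binding.

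Genes that respond to thyroid hormone are the classical readout of this corepressor, since receptor without hormone holds them low through NCoR1. Of 24 listed genes, all tested, 17 lay above control, with a median of 0.08. In amygdala 9 of the 24 lay above control (41.7% of all genes there), with a median of -0.05. The libraries of 4 did not overlap on the higher side (4.18% of all genes), 1 of them the clock gene Dbp. On the lower side those of 1 did not (3.91%), Camk4, a calcium-dependent kinase named here after its values were seen, with means of 93.6 TPM in controls and 74.7 TPM in NCoR1-KO. Klf9, an induced transcription factor, was at 189, 182, 200 and 200 TPM in controls and at 224, 208 and 218 TPM in NCoR1-KO, above every control (0.17 ± 0.05). Nrgn, which codes for the calmodulin-binding protein neurogranin, was at 1766 to 1894 TPM against 1998 to 2322 TPM (0.23 ± 0.11). Gls2, a glutaminase, differed by 0.23 ± 0.10 and Sema7a, a semaphorin, by 0.21 ± 0.08. Cirbp, the cold-inducible RNA-binding protein, was at 117 to 169 TPM against 93.1 to 117 TPM (-0.35 ± 0.13).

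Nuclear receptors as a list had a median near control. Of 34 tested, 15 lay above control, with a median of -0.03 and log2 differences from -0.88 to 0.39. Libraries of 1 did not overlap on the higher side (4.18% of all genes) and those of 3 on the lower side (3.91%). The thyroid hormone receptors Thra and Thrb differed by -0.11 ± 0.13 and -0.13 ± 0.10, and Thra, the more abundant of them per transcript length, was at 533 to 705 TPM in controls and 535 to 611 TPM in NCoR1-KO. Rara, a retinoic acid receptor, differed by 0.19 ± 0.10. Rxrg, a retinoid X receptor of the striatum, was at 2.58, 11.4, 4.24 and 1.75 TPM in controls and at 1.51, 2.54 and 1.29 TPM in NCoR1-KO, with control 2 far above the others. Its difference was -0.88 ± 0.43, and -0.45 without control 2. Of 19 tested genes of retinoic acid transport, synthesis and response, 8 lay above control, with a median of -0.01. Control 2 was the highest library for 9 of the 19 and NCoR1-KO 3 for 7. The retinoic acid median was 0.06 without control 2 and -0.10 without NCoR1-KO 3. Of 22 other corepressors and deacetylases 12 lay above control (median 0.04), and after Bcl6 the deacetylase Hdac1 was at 49.7 to 53.5 TPM against 53.8 to 57.3 TPM (0.09 ± 0.06).

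Genes induced by glucocorticoid, which in hippocampus acts through the receptors Nr3c1 and Nr3c2, had 17 of 20 members above control and a median of 0.19. On the higher side 5 had an unadjusted p under 0.05 (1.88% of all genes) and 4 had libraries that did not overlap (4.18%). Sgk1, a kinase that regulates ion transport, was at 74.8, 83.2, 73.3 and 84.9 TPM in controls and at 102, 87.1 and 132 TPM in NCoR1-KO (0.41 ± 0.12), and without NCoR1-KO 3 the difference was 0.25. Ddit4, an inhibitor of mTOR signalling, was at 71.1 to 78.6 TPM against 89.7 to 101 TPM (0.33 ± 0.10). Errfi1, an inhibitor of the EGF receptor, differed by 0.34 ± 0.11, Arrdc2, an arrestin-domain protein, by 0.34 ± 0.13, and Nfkbia, the inhibitor of NF-kappaB, by 0.25 ± 0.11. Without control 2 the median was 0.27, and in amygdala 13 of 20 lay above control (41.7% of all genes there) with a median of 0.07. Of the receptors themselves, Nr3c1 differed by -0.13 ± 0.12. Nr3c2 was at 143, 111, 144 and 145 TPM in controls and at 149, 146 and 149 TPM in NCoR1-KO (0.13 ± 0.17), with a difference of 0.04 without control 2.

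Immediate early genes, which neurons switch on within minutes of activity, had 29 of 30 members above control, with a median of 0.21. Arc, which codes for a synaptic protein of activity-dependent plasticity, was at 76.3, 162, 77.3 and 99.4 TPM in controls and at 156, 131 and 204 TPM in NCoR1-KO. Control 2 lay inside the knockout range, and the difference was 0.70 ± 0.27. Egr1, a zinc finger factor, was at 128, 241, 130 and 157 TPM against 193, 166 and 216 TPM (0.27 ± 0.20), with control 2 above every knockout library, and without control 2 the difference was 0.47. Egr3, of the same family, was at 69.1 to 85.9 TPM against 88.8 to 103 TPM (0.32 ± 0.12). Dusp6, a phosphatase that ends ERK signalling, was at 69.0 to 74.3 TPM against 83.6 to 90.3 TPM (0.26 ± 0.08), and Dusp5, of the same family, differed by 0.54 ± 0.25. Klf2, a zinc finger factor, differed by 0.42 ± 0.13. The summed level of the 30 genes was 1095, 1523, 1091 and 1081 TPM in controls and 1382, 1348 and 1511 TPM in NCoR1-KO, and 15 of the 30 were highest in control 2. Without that library the median was 0.30. In amygdala 29 of 30 also lay above control (41.7% of all genes there), with a median of 0.27.

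Heat shock genes had 23 of 24 members above control, with a median of 0.11. The median was 0.06 without control 1, 0.07 without NCoR1-KO 3 and 0.15 without control 2, and 11 of the 24 were highest in control 2 and 8 in NCoR1-KO 3. Dnajb5, a co-chaperone, was at 139 to 163 TPM in controls and at 171 to 179 TPM in NCoR1-KO (0.25 ± 0.07), and Hspe1, a mitochondrial chaperonin, differed by 0.13 ± 0.05. Hspa8, the constitutive HSP70 and the most abundant of the list, overlapped at 2374 to 2941 TPM against 2718 to 2928 TPM (0.11 ± 0.08).

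Interneuron genes lay mostly below control. Of 36 tested genes 4 lay above control, and the median was -0.29. On the lower side 5 had an unadjusted p under 0.05 (2.65% of all genes) and 4 had libraries that did not overlap (3.91%). Gad2, an enzyme of GABA synthesis, was at 105, 151, 112 and 132 TPM in controls and at 73.4, 101 and 87.2 TPM in NCoR1-KO, below every control (-0.51 ± 0.15). Gad1, its partner enzyme, overlapped between the groups, at 255 to 306 TPM against 238 to 292 TPM (-0.16 ± 0.15). Elfn1, a synaptic organiser of interneurons, differed by -0.30 ± 0.12. Dlx6, a homeobox gene of interneuron origin, was at 4.45, 9.71, 6.13 and 14.5 TPM against 4.41, 4.77 and 3.95 TPM (-0.74 ± 0.30), and its difference was -0.48 without control 4. Calb2, which codes for calretinin, was at 54.2 to 77.9 TPM against 28.8 to 41.2 TPM (-0.87 ± 0.51), and a SMRT-KO library at 193 TPM entered the shared spread. Calb2 is on the thalamus marker list too, and that SMRT-KO library had the highest sum of thalamus markers, 1072 TPM. Control 2 was the library with the highest sums of striatum and hypothalamus markers. Without control 2 the interneuron median was -0.23, and without control 2 and NCoR1-KO 3 it was -0.18. The amygdala median was -0.02, with 17 of 36 genes above control (41.7% of all genes there).

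Neuropeptide genes were placed alike, with 2 of 23 tested genes above control and a median of -0.33. Sst, which codes for somatostatin, was at 683, 736, 596 and 407 TPM in controls and at 452, 596 and 421 TPM in NCoR1-KO, and control 4 was the lowest of the 7 (-0.29 ± 0.23). Tac1, the substance P precursor that striatal neurons express strongly, was at 14.5, 54.1, 16.7 and 10.01 TPM against 9.59, 12.6 and 8.51 TPM (-0.86 ± 0.47), and without control 2 its difference was -0.38. Adcyap1, the precursor of PACAP, differed by -0.93 ± 0.49 and Tac2, that of neurokinin B, by -0.63 ± 0.30. Without control 2 the differences of Sst, Adcyap1 and Tac2 were -0.18, -0.65 and -0.40. Nppc, a natriuretic peptide, was at 4.75 to 6.65 TPM against 3.95 to 5.05 TPM (-0.31 ± 0.14). Control 2 was the highest of the 7 libraries for 13 of the 23 genes, against 19.4% of all genes, and without it the median was -0.23. In amygdala 15 of 22 lay above control (41.7% of all genes there), with a median of 0.17.

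Receptors and channels showed smaller medians with a few wide members. Of 17 ionotropic glutamate receptor genes 4 lay above control (median -0.11), and 5 had an unadjusted p under 0.05 on the lower side (2.65% of all genes). Grin2b, the NMDA receptor subunit that prevails early in development (minus strand of chromosome 6 from 135713233 to 136173511), was at 104, 55.9, 26.2 and 40.2 TPM in controls and at 21.6, 28.7 and 21.6 TPM in NCoR1-KO. Control 3 lay among the knockout libraries and control 1 far above, with a difference of -1.04 ± 0.44, and -0.69 without control 1. In amygdala Grin2b fell by 1.17 on the log2 scale (limma's adjusted p = 0.0291). Grik3, a kainate receptor, was at 17.9 to 26.9 TPM against 13.1 to 16.0 TPM (-0.53 ± 0.18). Grin3a and Gria4 differed by -0.57 ± 0.21 and -0.25 ± 0.11. Grin1, the obligate NMDA receptor subunit, lay on the other side, at 414 to 455 TPM against 458 to 483 TPM (0.11 ± 0.07).

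Without control 2 the glutamate receptor median was -0.09. Of 12 GABA-A receptor genes 5 lay above control (median -0.02, and -0.04 without control 2). Gabra3 was at 39.6, 69.1, 38.2 and 32.6 TPM against 17.8, 35.5 and 23.6 TPM (-0.78 ± 0.27), again with control 2 highest and a difference of -0.55 without it. Gabrg3 was at 10.3, 10.6, 4.06 and 9.90 TPM against 1.62, 5.07 and 5.06 TPM (-1.01 ± 0.45), with control 3 among the knockout libraries and a difference of -0.60 without NCoR1-KO 1. Of 42 potassium channel genes 15 lay above control (median -0.10). Kcnd3, an A-type channel, differed by -0.36 ± 0.11 and Kcnip1, a partner of such channels, by -0.19 ± 0.09, while Kcnab2, a beta subunit, was at 422 to 487 TPM against 495 to 564 TPM (0.26 ± 0.08). Vesicle release genes were balanced around control, with 18 of 34 above and a median of 0.01, Snap25 included. Napa, which recycles SNARE complexes, lay above every control, at 187 to 203 TPM against 209 to 229 TPM (0.15 ± 0.05).

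Metabolic targets of nuclear receptors stayed close to control. Fatty acid oxidation genes had 22 of 25 members above control with a median of 0.08, and 13 of the 25 were highest in NCoR1-KO 3. Cat, the peroxisomal catalase, was at 73.4, 71.9, 58.8 and 74.9 TPM in controls and at 85.2, 76.3 and 98.7 TPM in NCoR1-KO (0.31 ± 0.15), and Hadhb, a subunit of the mitochondrial trifunctional protein, differed by 0.13 ± 0.06. Without NCoR1-KO 3 the median was 0.04, and in amygdala 8 of the 25 lay above control (41.7% of all genes there), with a median of -0.07. Sterol efflux genes, targets of LXR, had 9 of 13 above (median 0.05), and sterol synthesis genes 12 of 24 (median 0.00). Of 14 tested genes on the Notch list, which holds receptors and ligands besides targets, 5 lay above control (median -0.03). Nrarp, which damps Notch signalling, was at 29.8 to 33.0 TPM against 24.5 to 28.7 TPM (-0.21 ± 0.07).

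**Figure D4:**
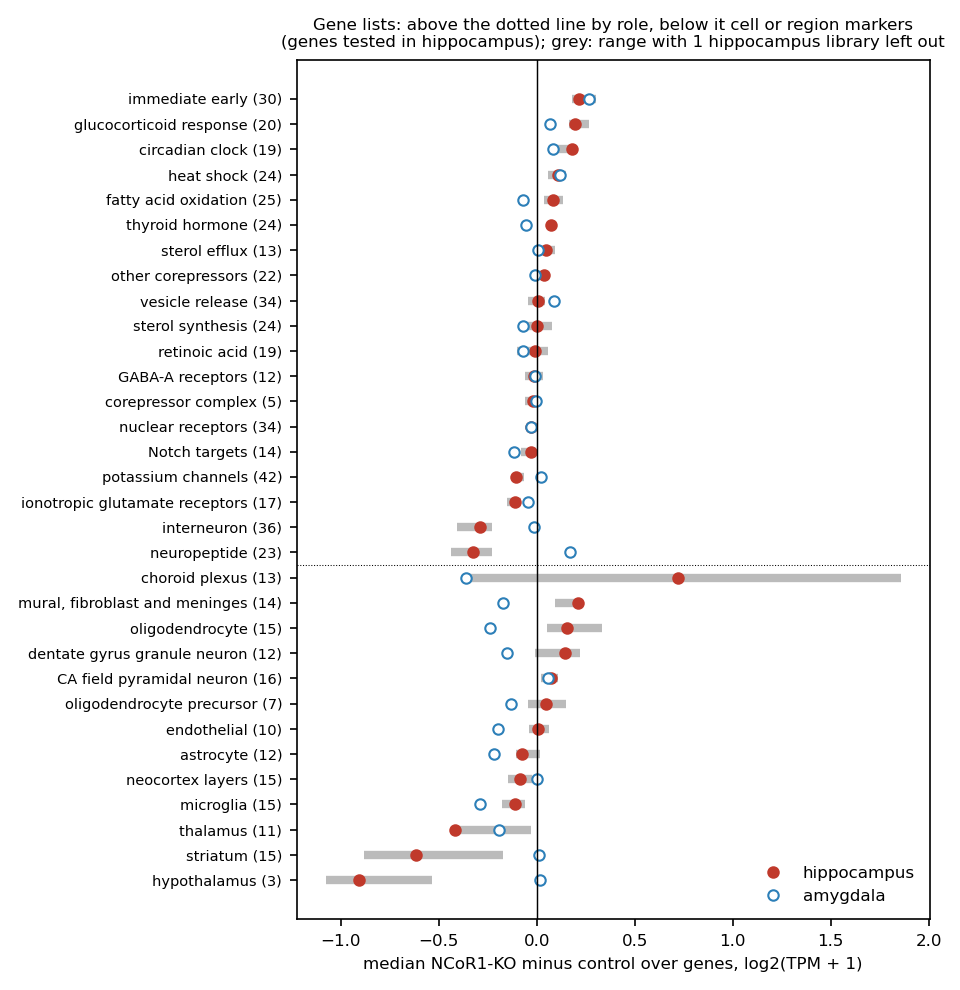
Median log2 difference (NCoR1-KO minus control) over the tested genes of each list, for hippocampus (red) and amygdala (blue, open), with the number of genes tested in hippocampus in brackets and a grey bar for the range when 1 of the 7 hippocampus libraries is left out. The choroid plexus bar runs from -0.35 to 1.86, whereas the immediate early, glucocorticoid and clock medians stay above 0.10.

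The tissue carried the markers of hippocampal neurons. Dentate gyrus granule neuron markers summed to 552 to 694 TPM in controls and 655 to 668 TPM in NCoR1-KO, and markers of the CA fields to 1353 to 1488 TPM and 1506 to 1584 TPM. Of 12 dentate markers 8 lay above control (median 0.14), and without control 2 the median was -0.01. Of 16 CA field markers 11 lay above (median 0.07).

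Most glial and vascular markers overlapped between the groups. Libraries did not overlap on the higher side (4.18% of all genes) for 4 of 14 mural, fibroblast and meningeal markers. The same held for 1 of 10 endothelial markers. On the lower side (3.91% of all genes) it held for 1 of 7 oligodendrocyte precursor markers. Oligodendrocyte markers lay above control in 15 of 15 genes (median 0.15), but their sum overlapped, from 11218 to 20763 TPM in controls and from 13898 to 17577 TPM in NCoR1-KO. Mbp, a myelin protein, was at 5010, 5775, 6400 and 9336 TPM against 7520, 6278 and 7702 TPM (0.15 ± 0.33). With single libraries left out the oligodendrocyte median ran from 0.05 to 0.33. Astrocyte markers had 3 of 12 above (median -0.07, from -0.11 to 0.02 with single libraries left out), with the glutamate transporter Slc1a2 at 1293 to 1586 TPM against 1124 to 1418 TPM (-0.21 ± 0.14). In amygdala Slc1a2 fell by 0.43 on the log2 scale (limma's adjusted p = 0.0291). Microglia markers had 3 of 15 above (median -0.11), with P2ry12, a purine receptor, at -0.21 ± 0.09. Endothelial markers had 5 of 10 above (median 0.01), and oligodendrocyte precursor markers 4 of 7 (median 0.05). Mural, fibroblast and meningeal markers had 12 of 14 above (median 0.21), and their sum was 334 to 365 TPM in controls and 334 to 488 TPM in NCoR1-KO. Col1a1, a collagen of fibroblasts, was at 7.08, 8.73, 5.06 and 8.34 TPM against 16.7, 12.8 and 14.4 TPM (0.93 ± 0.45), and Lum, a matrix proteoglycan, differed by 0.52 ± 0.19. Without NCoR1-KO 3, the library with the highest sum, the median was 0.09. In amygdala 0 of these 14 lay above control (41.7% of all genes there), with a median of -0.17. Oligodendrocyte markers had 0 of 15 above in that tissue (median -0.24), microglia markers 0 of 15 (median -0.29) and endothelial markers 0 of 10 (median -0.20). The part of these markers in the other differences was not tested.

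Markers of structures next to the hippocampus varied far more. The 13 choroid plexus markers summed to 3943, 3803, 205 and 983 TPM in controls and to 2644, 258 and 14174 TPM in NCoR1-KO. All 13 were highest in NCoR1-KO 3. Ttr, the thyroid hormone carrier transthyretin and the main product of that epithelium, was at 3173, 3250, 20.2 and 572 TPM in controls and at 2083, 48.0 and 11183 TPM in NCoR1-KO, a range within each group that exceeds the difference of 0.81 ± 2.41. The median of the list was 0.72, and -0.35 without NCoR1-KO 3.

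Striatum markers summed to 228, 570, 199 and 226 TPM in controls and to 199, 210 and 233 TPM in NCoR1-KO. Of 15 markers 12 were highest in control 2, and the median was -0.62 with it and -0.17 without it. Rgs9, a regulator of G protein signalling of striatal neurons, was at 17.6, 31.5, 16.8 and 12.96 TPM against 10.5, 15.6 and 10.1 TPM (-0.62 ± 0.25), with a difference of -0.38 without control 2. Of the 12 hypothalamus markers 3 were tested, and up to 4 were at 0 in a control and up to 6 in an NCoR1-KO library. Their sum was 297 TPM in control 2, 89.6 to 135 TPM in the other controls and 61.5 to 99.7 TPM in NCoR1-KO. Hap1, a partner of huntingtin that hypothalamus holds at high levels, was at 72.9, 250, 116 and 83.2 TPM against 55.5, 83.5 and 49.2 TPM (-0.90 ± 0.36), and its difference was -0.53 without control 2. Gpr101, an orphan receptor of the same region, differed by -0.94 ± 0.41, and by -0.55 without control 2. The median of the 3 was -0.90, and -0.53 without control 2. Thalamus markers had 5 of 11 above (median -0.42), and -0.03 without control 4, in which their sum was 414 TPM against 227 to 277 TPM in the other 6. Neocortex layer markers had 4 of 15 above (median -0.08). The part of these neighbours in the interneuron, neuropeptide and receptor differences was not tested.

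**Figure D5:**
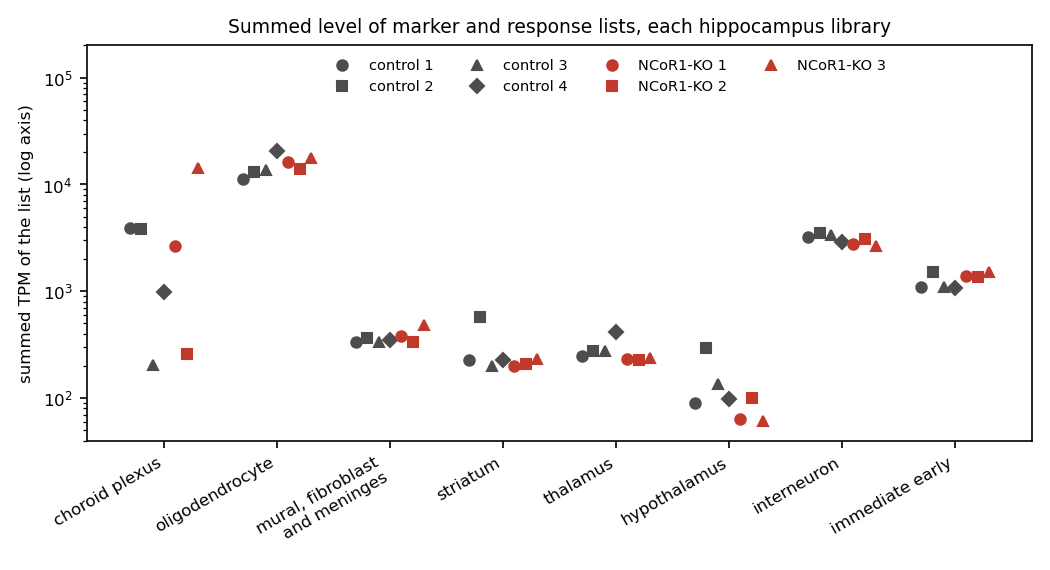
Summed TPM (log axis) of marker and response lists in each hippocampus library, controls in grey and NCoR1-KO in red, with 1 symbol per library. Choroid plexus markers span 205 to 14174 TPM across both groups, and control 2 lies above the other libraries for striatum and hypothalamus markers.

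Against amygdala, the difference between tissues in the NCoR1-KO effect was called by limma for 0 of 14210 genes (0%; 522 genes, 3.67%, at an unadjusted p under 0.05), with a smallest adjusted p of 0.998. Amygdala libraries are not part of the hippocampus contrast, but the labels do not say whether both tissues came from the same mice. Of all genes, 1.71% were among these 522 with a higher value in hippocampus and 1.96% with a lower one. In amygdala itself limma called 60 of 14606 genes (0.411%), and Ncor1 (-1.57 ± 0.16) and Snap25 (-0.78 ± 0.08) were among them. An unadjusted p under 0.05 was reached there by 13.1% of genes, 3.3% higher and 9.81% lower, and the median of all genes was -0.03. Of all genes tested there, 6093 lay above control and 8513 below (41.7% above). All 12 genes of the higher side in hippocampus were also above control in amygdala (41.7% of all genes), from 0.02 for Rnf19a to 0.48 for Tnfrsf25. For 2 of them, 1 of which was Nutf2, libraries did not overlap there (3.68% of all genes). Nutf2 was at 25.95 to 29.3 TPM in amygdala controls and at 30.7 to 32.1 TPM in NCoR1-KO. Of the 12 on the lower side 7 were below control in amygdala and 5 above, near the split of all genes (41.7% above). The libraries of 3, Ncor1, Snap25 and Tcp11l1, lay wholly below (8.43% of all genes, 12.1% in both directions). Gng4, at -0.89 in hippocampus, was at 123 to 134 TPM in amygdala controls and at 138 to 144 TPM in NCoR1-KO (0.13 ± 0.08). Because these genes were chosen for their hippocampus values, no test of single genes between tissues is read from them.

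In amygdala 14 of 19 clock genes lay above control (41.7% of all genes there), with a median of 0.08 against 0.18 in hippocampus. Clock was at -0.37 in amygdala. Arntl was at 27.8, 28.9, 25.2 and 27.6 TPM in amygdala controls and at 32.3, 35.4 and 34.4 TPM in NCoR1-KO, a difference of 0.30 ± 0.07 (limma's adjusted p = 0.0883). Nfil3 was at 7.36 to 13.7 TPM against 14.2 to 15.8 TPM (0.55 ± 0.17), and Nr1d1 at 77.1 to 90.8 TPM against 94.1 to 124 TPM (0.38 ± 0.10). The groups did not overlap for these 3 genes in that tissue. The difference between tissues was -0.03 for Arntl, 0.01 for Nfil3 and -0.04 for Nr1d1.

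The direct contrast of NCoR1-KO with SMRT-KO hippocampus shares the NCoR1-KO libraries with the comparison above, so its values are not independent of it. Limma called 0 of 14501 genes (0%), with a smallest adjusted p of 0.42, and 956 genes (6.59%) had an unadjusted p under 0.05, 3.82% higher and 2.77% lower. For Bcl6, SMRT-KO libraries were at 49.8, 41.8 and 40.9 TPM, a log2 difference of 0.42 from NCoR1-KO. For Arntl they were at 26.6, 23.6 and 22.5 TPM (0.44), and for Nfil3 at 8.98, 11.0 and 7.36 TPM (0.70). Snap25 and Garnl3 were placed otherwise, with differences of -0.03 and -0.02 between the knockouts. Gad2 was at 95.2, 73.6 and 96.3 TPM in SMRT-KO, within the range of NCoR1-KO.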

How the data were processed

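The 20 libraries of hippocampus and amygdala RNA were stranded mRNA libraries (TruSeq), per the labels' protocols. The authors deposited gene-level TPM in 1 table per tissue, with 2 decimals and nearly equal totals. The submitters' processing notes list RSEM 1.3.3, STAR 2.5.3a, fastp 0.21.0 and bcl2fastq, with no role or order, and mm10 as build. No source used here names the gene annotation. TPM keeps no depth, so no counting error can be given. A large rise of 1 RNA, such as Rn45s, lowers all other values of a library.

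Values were analysed as log2(TPM + 1), which understates the fold change of low genes, in R 4.3.3 with limma 3.58.1. Genes with 1 TPM in at least 3 of the 10 hippocampus libraries were fitted with genotype as the only term and a variance trend, with Benjamini-Hochberg adjustment over all tested genes and a threshold of 0.05. A two-sided exact permutation test was added for Ncor1 and Snap25, and tissues were compared by an interaction in a joint fit of all 20 libraries. Positions are from GENCODE M21 and promoters from RefSeq, through 21737 symbols and 1274 synonyms. Of the symbols, 66 matched several genes and 335 none. Genes that overlap on a strand are uncertain.

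Named genes are Ncor1 and Snap25, the 12 higher and 12 lower of smallest unadjusted p with libraries that did not overlap and a mean of at least 5 TPM (genes with predicted names or on X or Y are counted and not named under this rule, and 0 were passed over), all members of the corepressor, receptor and clock lists, up to 5 members of smallest p and up to 3 of highest TPM from other lists, and the neighbours of both loci. The comparison, members and lists were chosen with earlier results of these data known. Alternatives were 2 pseudocounts, 2 filters, 3 scalings, 3 fits, a replicate block and leaving out libraries. Leaving out control 2 and NCoR1-KO 3 together was chosen after seeing the data. Some results are counted here and not reported by name.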

Additional observations from a re-analysis of the deposited data

Results flagged for a closer look

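In groups of 4 controls, a library was singled out where its gap to the nearest of the others exceeded the critical value of Dixon's test for that size. Of 130 such groups 7 were singled out, where chance gives about 1 in 20. Among genes, Rnf19a was at 37.96 TPM in control 1 and at 43.08 to 43.51 TPM in the other controls. Nr3c2 was at 110.66 TPM in control 2 against 142.57 to 144.86 TPM. Control 3 was low for Elfn1, at 18.22 TPM against 20.14 to 20.2 TPM, and for Gabrg3, at 4.06 TPM against 9.9 to 10.56 TPM. Among lists, control 2 was high for the summed immediate early genes, at 1523 TPM against 1081 to 1095 TPM, and for the summed striatum markers, at 569.5 TPM against 198.5 to 228.3 TPM. Control 1 was high for the summed potassium channel genes, at 3085 TPM against 2840 to 2865 TPM.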

How the results depend on the processing

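The count of 0 called genes held under 16 of 19 alternatives. It was 1 with quantile normalization (Snap25, adjusted p = 0.029), 1 with only the 7 libraries (Snap25, adjusted p = 0.00133) and 1 without control 2 (a predicted gene), so that it ran from 0 to 1 with single libraries left out. Of 98 named genes 92 kept 1 sign under all alternatives. Leaving out 1 library took Hdac3 to between 0.010 and 0.019 where its sign changed, Tbl1x to 0.035 and 0.038, Tbl1xr1 to -0.011, Gps2 to 0.017 and 0.036 and Ttr to -0.90 and -0.79. Over all libraries left out singly, Hdac3 ran from -0.062 to 0.019, Tbl1x from -0.051 to 0.038, Tbl1xr1 from -0.011 to 0.12, Gps2 from -0.081 to 0.036 and Ttr from -0.90 to 3.02. Quantile normalization gave 0.0036 for Tbl1x and -0.16 for Mbp. Leaving out control 2 and NCoR1-KO 3 gave 0.041 for Tbl1x, 0.052 for Gps2 and -0.079 for Ttr. The cause of these changes was not tested. Genes at an unadjusted p under 0.05 numbered 497 higher and 618 lower with only the 7 libraries, 160 and 164 without NCoR1-KO 1, 192 and 199 without NCoR1-KO 3, and 267 and 186 without control 2 and NCoR1-KO 3, against 273 and 385. With 1 library left out, Ncor1 ran from -1.39 to -1.12 and Snap25 from -0.83 to -0.78. The exact permutation p was then 0.1 or 0.0667, the smallest these designs allow. Deviations of NCoR1-KO libraries from their group mean correlated with those of the control of the same number at -0.07, 0.01 and -0.46. With controls of another number they correlated at -0.23 to 0.35. So few values cannot decide whether the numbers pair the samples, and the labels do not say. With a replicate block 0 genes were called (smallest adjusted p = 0.154), Ncor1 was at -1.14 and Snap25 at -0.80 (limma's adjusted p = 0.791). The number of control 4 occurs once, so it drops out of that contrast. Between tissues, libraries of the same number correlated at 0.13 to 0.48 in NCoR1-KO and 0.05 to 0.32 in controls. Those of different number correlated at -0.35 to 0.04 in NCoR1-KO and -0.30 to 0.24 in controls. Whether same-numbered libraries share an animal was not tested. With or without pairing by number, 0 genes were called between tissues. TPM sets no depth limit, and the number of libraries limits the precision.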
